A study of Mus musculus with 17 samples.

Results

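The transcripts of 7 ligands through which macrophages speak to T cells (Cd40, Cd80, Cd83, Cd86, Cd274, Pdcd1lg2 and Icosl) were examined in mouse macrophages edited at AP-1 genes or exposed to a bacterial lipid. They were taken by symbol from a table of 24453 gene models, and all 7 had a row. Cd80 and Cd86 encode the B7 proteins that engage CD28, the costimulatory receptor of T cells, or its inhibitory relative CTLA4. Icosl encodes the ligand of ICOS, and Cd40 encodes a receptor of the TNF receptor family that is engaged by CD40 ligand on T cells. Cd83 encodes a surface protein widely used as a marker of mature dendritic cells. Cd274 and Pdcd1lg2 encode PD-L1 and PD-L2, the ligands of the inhibitory receptor PD-1.

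Macrophages carry such ligands at low levels at rest, and signals through Toll-like receptors raise several of them through NF-kB and interferon regulatory factors. AP-1 factors such as ATF3, Jun and JunD are dimeric regulators that bind a short palindromic DNA element. Transcript levels are not surface protein levels, which for several of these ligands are also set by ubiquitin ligases and by traffic within the cell.

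PolyA RNA-seq had been done in 2 kinds of macrophage, with 13 libraries. Immortalised bone marrow-derived macrophages (iBMDMs, passage 3-8) were C57Bl/6EiJ cells that carried mutant BRAF, Myc and Cas9 in every group, and none received agonist. A lentivirus with 2 guides for Atf3 (Atf3KO), Jun (JunKO) or Jund (JunDKO) was introduced and infected cells were sorted on its fluorescent marker, so each group was a sorted pool. The control carried the genotype label scramble control (Scramble, zsGreen in the titles). Each iBMDM group held 2 libraries. Thioglycollate-elicited macrophages (TGEMs), primary peritoneal cells taken from 8-week mice, received vehicle (PBS) or Kdo2 lipid A (KLA), which activates TLR4, for 1 h. There was 1 library each of vehicle and KLA from C57Bl/6EiJ mice, and from Balb/cJ mice 1 of vehicle and 2 of KLA. Nothing in the labels says whether replicates were separate cultures or animals, so p-values measure only the spread between these libraries.

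Libraries held 1553296 to 18444643 reads, and JunDKO replicates 1 and 2 were the shallowest and the deepest. The Atf3KO libraries stood apart, with reads in 10425 and 10631 gene models against 11884 to 12533 in the other iBMDM libraries, so comparisons of the other groups were also fitted without them. The authors checked knockout efficiency by western blotting, and report a loss of Jun ChIP-seq binding in Jun knockout iBMDMs. Here the edits could not be checked from exonic RPKM, since a small deletion need not lower a transcript. Scramble held 80.7 and 77.4 RPKM (reads per kilobase of exon and per 1e6 reads) of Atf3, and Atf3KO held 154 and 169. Jun was at 17.6 and 18.5 RPKM in Scramble and at 26.2 and 20.5 in JunKO, and Jund at 9.19 and 8.33 in Scramble and at 6.94 and 6.07 in JunDKO. Group names below are therefore those of the labels. The libraries of TGEMs, labelled male, held 19.2 to 28.1 RPKM of Xist and 0 RPKM of the Y-linked gene Ddx3y, whereas iBMDMs, also labelled male, held at most 0.029 RPKM of Xist and 4.93 to 30.7 of Ddx3y. The TGEM values go against the label, and the kinds of cell differed in these sex-linked genes. All 8 macrophage markers reached 1 RPKM in both kinds of cell, with summed levels of 16880 to 33020 RPKM in iBMDMs and 7803 to 10850 in TGEMs. Of the T cell markers, 6 of 8 were at 0 in all iBMDM libraries and the list summed to at most 1.42 RPKM there and to 1.61 to 3.77 in TGEMs. B cell markers summed to at most 0.488 RPKM in iBMDMs and to 11.4 to 25.3 in TGEMs. Dendritic cell markers summed to 0.299 to 4.00 RPKM in iBMDMs and to 68.9 to 164 in TGEMs, of which Itgax, an integrin that elicited macrophages also carry, made up 67.2 to 160. Stromal markers summed to at most 0.417 RPKM in iBMDMs and to 34.4 to 71.8 in TGEMs. Eosinophil and mast cell markers summed to at most 1.29 RPKM in iBMDMs and to 1.27 to 6.17 in TGEMs. Among neutrophil markers S100a8 alone was detected in iBMDMs, and the list summed to 21.8 to 41.1 RPKM in Scramble, Atf3KO and JunKO, to 0 in JunDKO and to 0.794 to 13.4 in TGEMs.

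The 7 genes lie on 5 chromosomes of GRCm38 (mm10). Cd274 (chr19:29367438-29388094) and Pdcd1lg2 (chr19:29410919-29472927) are neighbours on the plus strand, 22824 bases apart. Cd80 (chr16:38458933-38486932, plus strand) and Cd86 (chr16:36603869-36666077, minus strand) share chromosome 16. Icosl lies at chr10:78069368-78079525, Cd40 at chr2:165055636-165071654 and Cd83 at chr13:43785112-43803133, all on the plus strand. None of the 7 models overlapped another model of the table. Promoter sequence, from 250 bases before to 50 bases after the start site, was at hand for 4 of the 7 (RefSeq, GRCm38.p6): Cd80, Cd274, Pdcd1lg2 and Icosl. Those of Cd80 and Cd274 are shown because both transcripts were lower in JunDKO than in Scramble, and that of Icosl because its transcript was higher with KLA. They run 5′ to 3′ on the plus strand, with motif matches in capitals, for Cd80 at chr16:38458683-38458982, for Cd274 at chr19:29367188-29367487 and for Icosl at chr10:78069118-78069417.

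Cd80: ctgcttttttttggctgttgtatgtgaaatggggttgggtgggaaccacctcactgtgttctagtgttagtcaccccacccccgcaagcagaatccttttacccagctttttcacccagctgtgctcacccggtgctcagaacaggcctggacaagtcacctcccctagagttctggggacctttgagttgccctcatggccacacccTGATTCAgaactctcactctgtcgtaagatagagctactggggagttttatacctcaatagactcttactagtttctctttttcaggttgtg

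Cd274: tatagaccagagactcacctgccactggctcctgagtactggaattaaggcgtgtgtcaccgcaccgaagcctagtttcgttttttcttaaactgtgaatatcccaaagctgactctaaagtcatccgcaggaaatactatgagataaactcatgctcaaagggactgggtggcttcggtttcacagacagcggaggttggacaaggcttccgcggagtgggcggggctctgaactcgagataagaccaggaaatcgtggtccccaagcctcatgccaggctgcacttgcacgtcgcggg

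Icosl: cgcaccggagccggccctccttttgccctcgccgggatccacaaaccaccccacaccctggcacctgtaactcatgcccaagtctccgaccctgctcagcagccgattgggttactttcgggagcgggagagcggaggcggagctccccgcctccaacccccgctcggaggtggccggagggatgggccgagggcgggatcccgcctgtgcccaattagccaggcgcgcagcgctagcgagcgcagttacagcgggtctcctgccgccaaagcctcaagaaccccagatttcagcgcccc

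The capitals in Cd80 mark a match to the pattern TGANTCA, read as TGATTCA at position -42 from the start site. This pattern is wider than the AP-1 element given in the paper, TGASTCA, where S is C or G. With T at its centre, the marked stretch does not match that narrower element. The wider pattern was found in 7.81% of 32851 promoters of the same length. The other motifs searched on both strands were the CRE TGACGTCA (1.79% of promoters), the GAS element TTCNNNGAA (8.30%) and the NF-kB element (4.51%). None of the 4 motifs was found in the windows of Cd274 and Icosl, which says only that these letters are absent there. The RefSeq genes of Cd274 and Cd80 begin further upstream, at 29362107 and 38457430, and no window at those starts was searched. The window of Pdcd1lg2, not printed, held 1 match of the NF-kB element at position -244. A match is a description of the sequence and does not show that a factor binds.

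**Figure D1:**
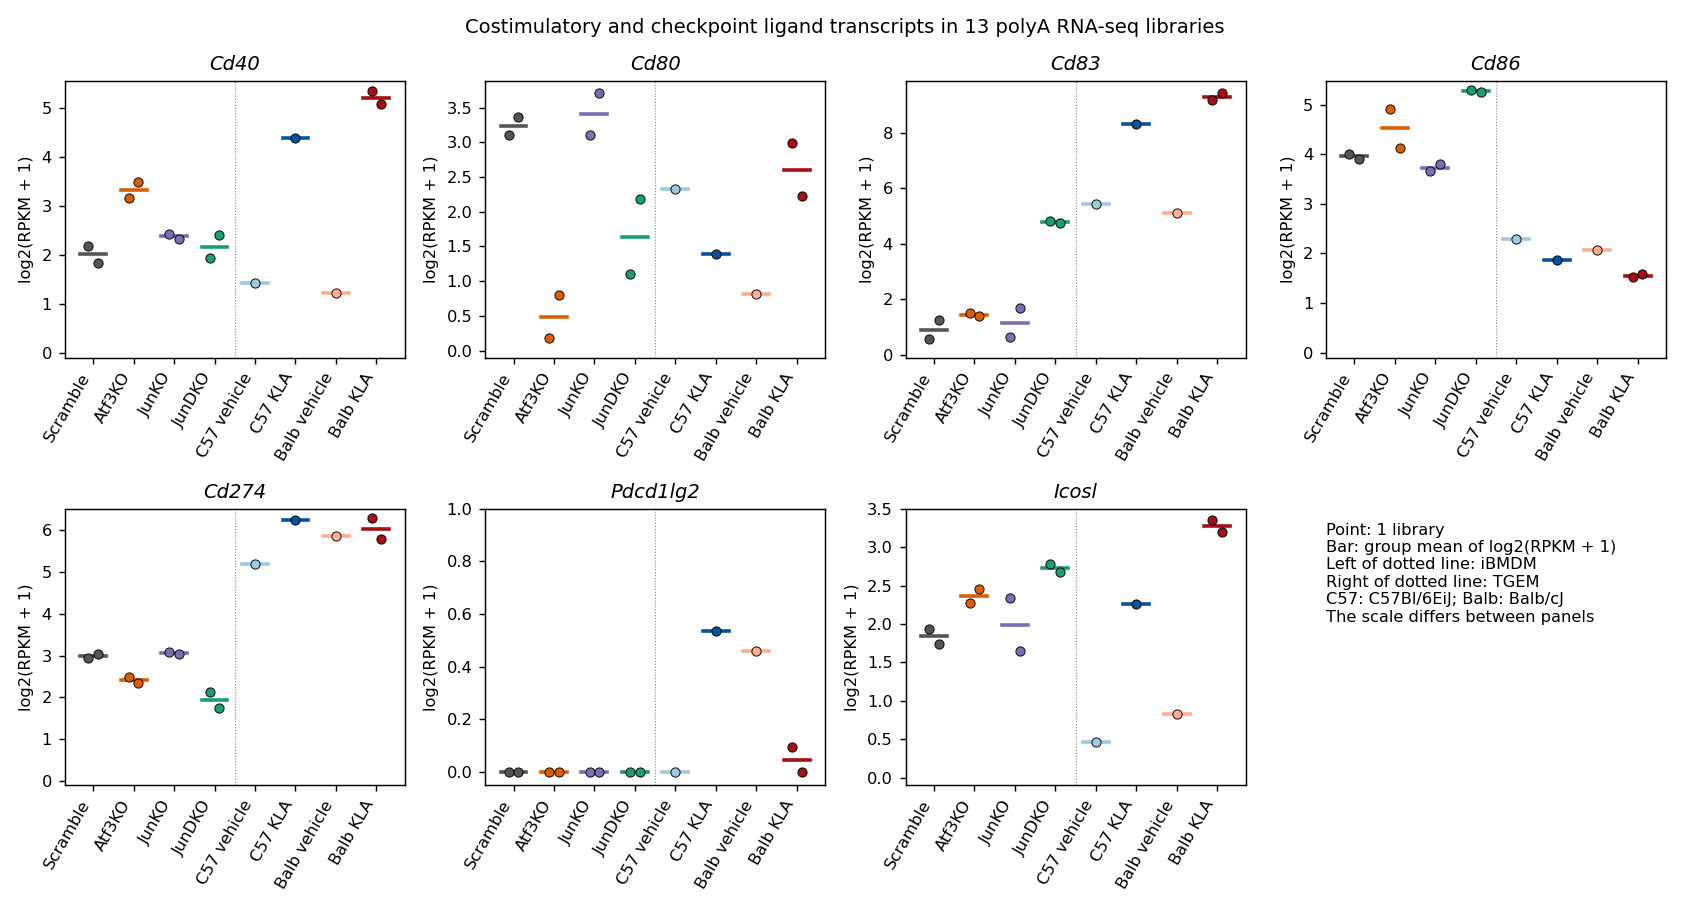
Level of each of the 7 ligand transcripts, as log2(RPKM + 1) on the y axis, in the 8 groups of libraries on the x axis. Points are libraries and bars are group means. Cd83 in JunDKO, at 25.9 and 27.2 RPKM, lies near the vehicle TGEMs and far above the other iBMDM groups, while Cd86 is higher in every iBMDM library than in every TGEM library.

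The B7 pair was followed first. Cd80 measured 7.65 and 9.32 RPKM in Scramble, 7.62 and 12.1 in JunKO, 1.14 and 3.56 in JunDKO and 0.134 and 0.735 in Atf3KO. The Scramble and JunKO libraries thus lay above all 4 JunDKO and Atf3KO libraries. In TGEMs Cd80 was at 4.04 RPKM in the C57Bl/6EiJ vehicle library and 1.63 with KLA, and at 0.756 in the Balb/cJ vehicle library against 6.95 and 3.68 with KLA. These are low levels: the lowest rested on 1 read in Atf3KO replicate 1 and on 3 reads each in JunDKO replicate 1 and the Balb/cJ vehicle library. With groups ordered by mean level (JunKO, Scramble, Balb/cJ KLA, C57Bl/6EiJ vehicle, JunDKO, C57Bl/6EiJ KLA, Balb/cJ vehicle, Atf3KO), the unadjusted 95% interval of the difference between neighbours included 0 at every step. In such orders a group of 1 library borrows its spread from the other groups, so its steps have no replicate check of their own.

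Cd86 measured 15.2 and 14.1 RPKM in Scramble, 11.6 and 12.9 in JunKO, 29.3 and 16.4 in Atf3KO and 38.2 and 37.4 in JunDKO. Both JunDKO libraries lay above all other libraries of the series. In TGEMs the vehicle libraries held 3.92 (C57Bl/6EiJ) and 3.21 RPKM (Balb/cJ), and the KLA libraries held 2.67 (C57Bl/6EiJ) and 1.88 and 1.98 (Balb/cJ). JunDKO, highest of the 4 iBMDM groups for Cd86, lay below Scramble and JunKO for Cd80. Along the order of the 8 groups, the unadjusted 95% interval excluded 0 between JunDKO and Atf3KO, and between JunKO and C57Bl/6EiJ vehicle, the latter a group of 1 library.

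Cd83 spanned the widest range. It measured 0.487 and 1.37 RPKM in Scramble (2 and 5 reads), 0.552 and 2.19 in JunKO, 1.82 and 1.62 in Atf3KO and 27.2 and 25.9 in JunDKO. The JunDKO libraries lay above the other 6 iBMDM libraries with no overlap. Vehicle TGEMs held 41.8 RPKM (C57Bl/6EiJ) and 33.3 (Balb/cJ), and KLA libraries held 317 (C57Bl/6EiJ) and 582 and 687 (Balb/cJ). The unadjusted interval between neighbours excluded 0 between JunDKO and Atf3KO. It also did so between Balb/cJ KLA and C57Bl/6EiJ KLA and between C57Bl/6EiJ KLA and C57Bl/6EiJ vehicle, where C57Bl/6EiJ groups are 1 library each and strain goes with date, whereas the interval between Balb/cJ vehicle and JunDKO included 0.

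Cd40 measured 3.54 and 2.54 RPKM in Scramble, 4.37 and 3.98 in JunKO, 2.80 and 4.24 in JunDKO and 7.91 and 10.1 in Atf3KO. Only the Atf3KO pair stood clear of the other iBMDM libraries. TGEMs held 1.69 (C57Bl/6EiJ) and 1.33 RPKM (Balb/cJ) with vehicle and 19.7 (C57Bl/6EiJ), 39.3 and 32.5 (Balb/cJ) with KLA. Icosl measured 2.84 and 2.35 RPKM in Scramble, 4.07 and 2.13 in JunKO, 3.82 and 4.49 in Atf3KO and 5.88 and 5.42 in JunDKO. Its JunDKO libraries were above the other 6 iBMDM libraries. In TGEMs Icosl was at 0.384 (C57Bl/6EiJ) and 0.779 RPKM (Balb/cJ) with vehicle and at 3.82 (C57Bl/6EiJ), 9.25 and 8.21 (Balb/cJ) with KLA.

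Among the inhibitory ligands Cd274 measured 6.71 and 7.25 RPKM in Scramble, 7.44 and 7.24 in JunKO, 4.58 and 4.07 in Atf3KO and 3.37 and 2.36 in JunDKO. Atf3KO and JunDKO libraries all lay below Scramble and JunKO libraries. Every TGEM library held more of it than every iBMDM library, with 35.5 (C57Bl/6EiJ) and 57.4 RPKM (Balb/cJ) with vehicle and 74.0 (C57Bl/6EiJ), 76.8 and 54.2 (Balb/cJ) with KLA. Pdcd1lg2 had 0 reads in all 8 iBMDM libraries, and 3 reads would have been worth 0.0477 to 0.567 RPKM in them. In TGEMs it was at 0 RPKM in the C57Bl/6EiJ vehicle library and in Balb/cJ KLA replicate 2, and at 0.376 (3 reads), 0.068 (4 reads) and 0.451 RPKM (5 reads) in the Balb/cJ vehicle, Balb/cJ KLA 1 and C57Bl/6EiJ KLA libraries. It did not reach the mean of 1 RPKM required for testing, so 6 of the 7 ligands were tested in each comparison.

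The first question was how these transcripts differed between libraries labelled as knockouts of each AP-1 member and Scramble. Against Scramble, libraries labelled JunDKO had higher Cd83 and Cd86 and lower Cd274 and Cd80, with 2 of 6 tested ligands higher and 2 lower. Cd83 was up by 3.88 ± 0.38 on the log2(RPKM + 1) scale (SE, 2 libraries in each group, adjusted p = 6.38e-04 by limma-trend), and the ratio of mean RPKM was 28.6. Cd86 was up by 1.31 ± 0.26 (adjusted p = 0.0150), from a mean of 14.6 ± 0.755 RPKM (SD, n = 2) in Scramble to 37.8 ± 0.533 in JunDKO. Cd274 fell by 1.06 on that scale (SE 0.23, adjusted p = 0.0206) and Cd80 fell by 1.60 (SE 0.41, adjusted p = 0.0424). The median log2 difference of the 6 was 0.52, beside 0.24 over all tested gene models. Icosl did not pass, with a difference of 0.89 ± 0.29 (adjusted p = 0.0850), and neither did Cd40, at 0.15 with a 95% interval of -0.46 to 0.77. In this comparison 6.93% of 10691 tested gene models were called higher and 4.82% lower.

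Giving libraries equal medians removed most of that shift and left 30.8% of all calls in the higher direction instead of 59.0% (41.3% after quantile normalization). On equal medians Cd83 was up by 3.60 and Cd86 by 1.04, and Cd274 and Cd80 fell by 1.33 and 1.88, so all 4 calls stood with adjusted p of 7.81e-04 to 0.0422. The call of Cd83 held in all 14 alternatives that kept the threshold. With 1 of the 4 libraries left out, Cd86 and Cd274 no longer passed whichever it was, at adjusted p of 0.0758 to 0.121 for Cd86 and 0.0629 to 0.148 for Cd274, although their directions stayed. Cd80 was lost without Scramble 1 (0.129), Scramble 2 (0.206) or JunDKO 1 (0.252), with a pseudocount of 0.1 (0.112), with no filter on low values (0.0855) and by limma-voom (0.0672). Single genes from the marker lists of other cells also differed. S100a8 was at 0 RPKM in both JunDKO libraries, and Itgax, the tested gene of the dendritic cell list, was lower, at 0.299 to 0.484 RPKM against 2.78 to 3.24 in Scramble (log2 difference -1.53). Of 8 macrophage markers 1 was called higher and 1 lower. The part of these differences in the ligand results was not tested.

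**Figure D2:**
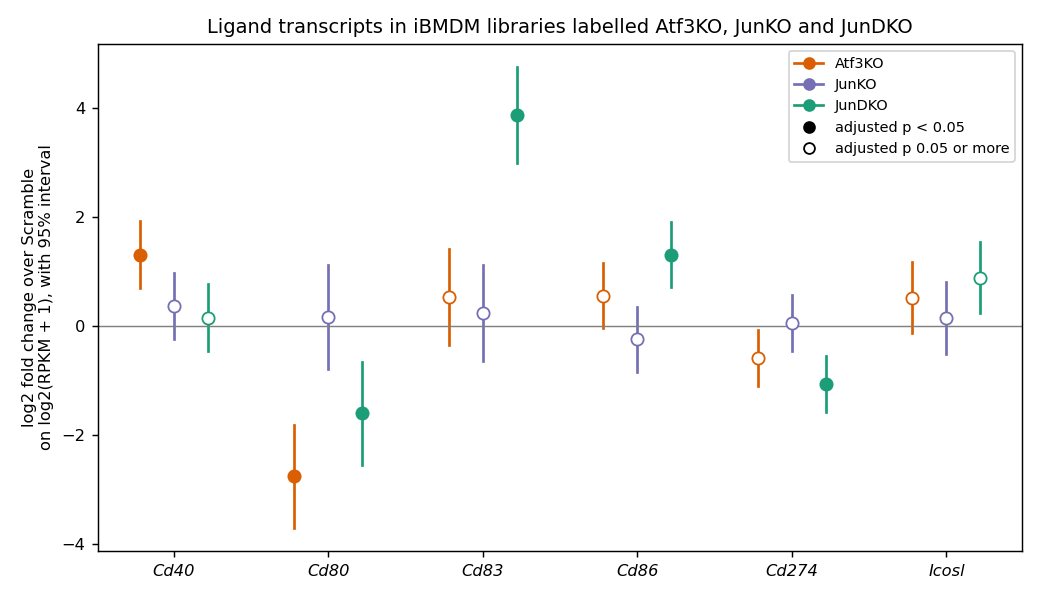
Log2 fold change over Scramble, on log2(RPKM + 1), of the 6 tested ligand transcripts in libraries labelled Atf3KO, JunKO and JunDKO, each group with 2 libraries. Bars are 95% intervals of limma-trend and filled points passed an adjusted p of 0.05. Cd83 rises in JunDKO, Cd80 is lower in both Atf3KO and JunDKO, Cd40 is higher in Atf3KO, and every JunKO interval includes 0.

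In libraries labelled Atf3KO, Cd40 and Cd80 passed. Cd40 was up by 1.31 ± 0.27 (adjusted p = 0.00684), from 3.04 ± 0.706 to 9.01 ± 1.57 RPKM (mean ± SD, n = 2). Cd80 fell by 2.75 on the log2(RPKM + 1) scale (SE 0.41, adjusted p = 0.00223), from 8.48 ± 1.18 to 0.434 ± 0.425 RPKM, which is 52 reads against 10. Cd86 (0.56 ± 0.26, adjusted p = 0.117), Cd274 (-0.58 ± 0.23, 0.0685), Icosl (0.52 ± 0.29, 0.171) and Cd83 (0.53 ± 0.38, 0.285) did not pass. The count of 1 higher and 1 lower of 6 stood beside 20.7% of all tested gene models higher and 20.6% lower. The median over the 6 ligands was 0.53, beside 0.05 over all. Differences in this comparison followed the GC content of transcripts (Spearman's rho of 0.492 across gene models), and with that trend removed from each library Cd86 also passed, at 1.09 with an adjusted p of 0.00323, while Cd274 was at -0.18 (0.516). On equal medians Cd274 passed (0.0374), and the higher share of all calls moved from 50.1% to 42.0%.

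Atf3KO replicate 2 carries a later title date than the other 7 iBMDM libraries. Without it, which leaves libraries of a single date, Cd40 was up by 1.15 (adjusted p = 0.0413), Cd80 fell by 3.06 (0.0120), and Cd86 passed at 0.96 (0.0159). Without Atf3KO replicate 1 instead, Cd86 was at 0.16 (0.491), so its value rested on which of these libraries was kept. Cd80 passed in all 14 alternatives and Cd40 in 13, being lost without Scramble 2 (adjusted p = 0.0526). Libraries labelled JunKO showed no ligand past the threshold, and none of the 6 had an unadjusted p under 0.05 or passed by limma-voom. Their median difference was 0.16. Over all tested gene models 0.159% were called higher and 0.122% lower by limma-trend in JunKO, 30 in all, and 842 had an unadjusted p under 0.05. The widest JunKO interval, that of Cd80, ran from -0.78 to 1.11 on the log2 scale, so differences up to about that size could not be told from 0 here.

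The knockouts were also compared directly. The Scramble contrasts share their control libraries, whereas these do not use them. Against JunKO, libraries labelled JunDKO had higher Cd83 (3.63 ± 0.38, adjusted p = 0.00114) and Cd86 (1.55 ± 0.26, 0.00981) and lower Cd274 (-1.12 ± 0.23, 0.0207) and Cd80 (-1.76 ± 0.41, 0.0370). That is 2 of 6 higher and 2 lower, beside 4.33% and 3.81% of all gene models. Cd86 and Cd274 again did not pass when any 1 of the 4 libraries was left out (adjusted p of 0.0650 to 0.0997 and 0.0690 to 0.156), and Cd80 was lost without JunDKO 1 (0.226), JunKO 1 (0.0967) or JunKO 2 (0.205) and in 3 other alternatives. The median of all gene models was shifted by 0.23, and equal medians moved the higher share of all calls from 53.2% to 27.0%, and the 4 ligand calls stood.

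Between libraries labelled Atf3KO and JunDKO, Cd40 was higher in Atf3KO (1.16 ± 0.27, adjusted p = 0.0105) and Cd83 (-3.34 ± 0.38, 6.10e-04) and Cd86 (-0.75 ± 0.26, 0.0485) were lower, beside 14.9% of all gene models higher and 25.9% lower. The call of Cd86 was lost in 9 of 14 alternatives, and that of Cd40 without Atf3KO 2 (0.0584) or JunDKO 1 (0.0754). Itgax and S100a8, each the 1 tested gene of the dendritic cell and neutrophil lists, were also called higher in Atf3KO than in JunDKO, by 1.13 and 4.95 on the log2 scale. In each of these lists 5 other genes were at 0 RPKM in all iBMDM libraries. Against JunKO, S100a8 was lower in JunDKO (-4.61) and Itgax higher in Atf3KO (0.87). The part of these 2 genes in the results was not tested. Cd80 differed by -1.15 ± 0.41 (adjusted p = 0.0540) between these groups, with a 95% interval of -2.10 to -0.21, and passed in 5 of 14 alternatives (adjusted p of 0.00676 to 0.660 over all 14). Against JunKO, libraries labelled Atf3KO had higher Cd40 (0.94 ± 0.27, adjusted p = 0.0271) and Cd86 (0.80 ± 0.26, 0.0452) and lower Cd80 (-2.92 ± 0.41, 0.00236), beside 17.0% and 18.5% of all gene models. In that comparison Cd80 passed in all 14 alternatives, while Cd40 was lost in 6 and Cd86 in 10. Between Atf3KO and JunDKO the median of all gene models was shifted by -0.15, and equal medians moved the higher share of all calls from 36.5% to 48.4%.

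The response to TLR4 was measured in TGEMs. After 1 h of KLA, Cd40, Cd83 and Icosl were higher in both strains. Cd40 rose by 3.54 ± 0.30 on the log2(RPKM + 1) scale (SE, 3 KLA and 2 vehicle libraries; limma-trend adjusted p = 0.00189), Cd83 by 3.64 ± 0.35 (0.00297) and Icosl by 2.17 ± 0.28 (0.0104). For these 3 genes every KLA library lay above both vehicle libraries. That is 3 of 6 tested ligands higher and 0 lower, beside 1.29% of 10357 tested gene models higher and 0.232% lower. Of the 3, Icosl was at 0.384 and 0.779 RPKM in the vehicle libraries and met the 1 RPKM filter only through its KLA libraries. The median over the 6 was 1.40, beside -0.15 over all. Cd274 (0.54 ± 0.32, adjusted p = 0.453), Cd80 (0.63 ± 0.59, 0.640) and Cd86 (-0.48 ± 0.26, 0.418) did not pass. This fit had 2 residual degrees of freedom, and Pdcd1lg2 was not tested. Only the Balb/cJ KLA group held 2 libraries, of different title dates. The spread behind these SE therefore came from their difference and from unequal KLA effects in the strains, not from replicates of each group.

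Within single title dates, each with 1 vehicle and 1 KLA library, ratios of RPKM could be given with exact 95% intervals that cover counting error only. In Balb/cJ the ratio of KLA to vehicle was 29.7 for Cd40 (12.7 to 91.6), 17.5 for Cd83 (15.0 to 20.5) and 11.9 for Icosl (5.05 to 36.7). In C57Bl/6EiJ it was 11.7 for Cd40 (7.73 to 18.0), 7.59 for Cd83 (7.04 to 8.19) and 9.94 for Icosl (5.02 to 21.1). Both dates gave the same direction for these genes. Cd274 had a ratio of 2.09 in C57Bl/6EiJ (1.92 to 2.27) and 1.34 in Balb/cJ (1.22 to 1.47), but the second Balb/cJ KLA library, of another date, lay below the vehicle library. Cd86 had ratios of 0.682 (0.411 to 1.08) and 0.586 (0.353 to 1.02).

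**Figure D3:**
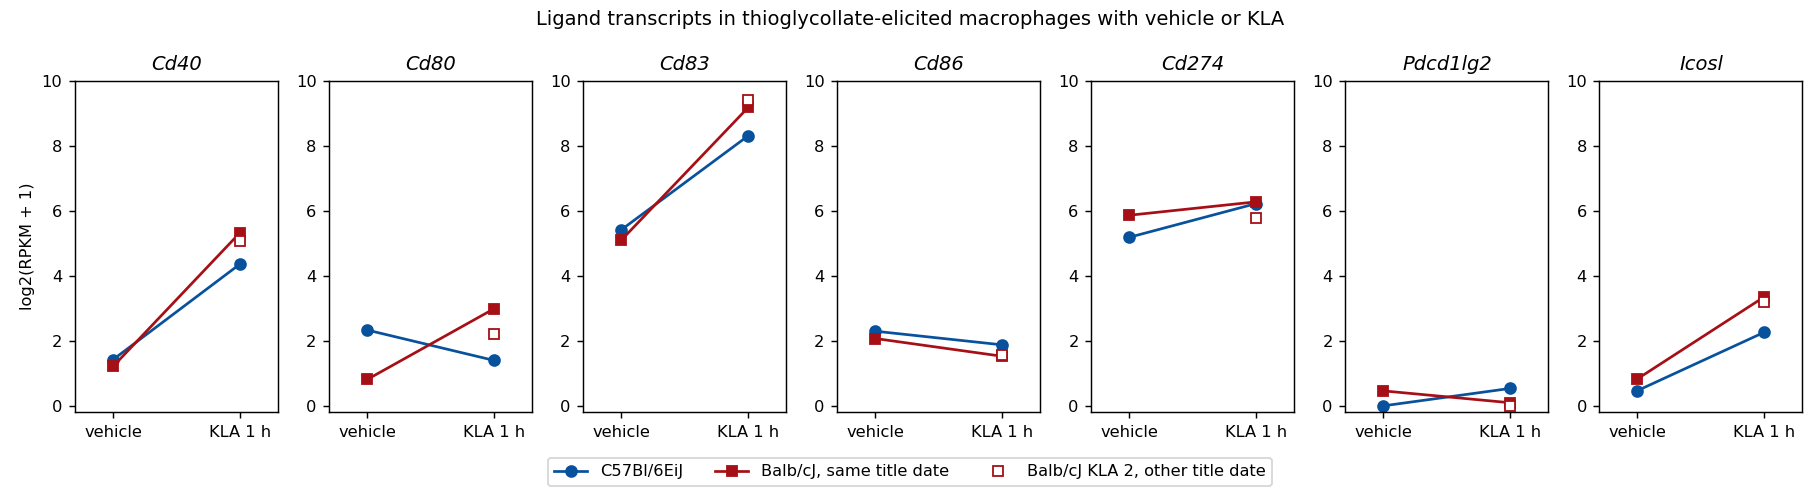
Level of the 7 ligand transcripts, as log2(RPKM + 1) on the y axis, in TGEM libraries with vehicle or 1 h of KLA. Lines join the vehicle and KLA libraries of 1 title date and the open square is the Balb/cJ KLA library of another date. Cd40, Cd83 and Icosl rise in both strains, Cd80 is higher with KLA in Balb/cJ and lower in C57Bl/6EiJ, and Pdcd1lg2 stays near 0.

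The KLA result leaned on the Balb/cJ vehicle library. Without it the calls of all 3 genes were lost (adjusted p of 0.103 for Cd40, 0.138 for Cd83 and 0.256 for Icosl), with the differences at 2.94, 2.89 and 1.80. Icosl was also lost without Balb/cJ KLA 1 (0.146), with no filter on low values (0.119) and with title date in place of strain (0.0940). On equal medians the 3 rises were 3.67, 3.78 and 2.31. B cell markers, whose cells carry several of these ligands, summed to 11.4 to 14.5 RPKM in vehicle and 11.8 to 25.3 in KLA libraries, and of the 4 tested none passed. Of 8 macrophage markers 1 was called higher with KLA, and the tested neutrophil marker, at -1.71, had an unadjusted p under 0.05 and did not pass. The part of other cells in these values was not tested, and in bulk libraries fewer cells of a type and less RNA per cell cannot be told apart.

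Between strains, 0 of 6 ligands passed by limma-trend, beside 0.859% of all gene models higher and 1.45% lower in Balb/cJ. Only Icosl had an unadjusted p under 0.05, with a difference of 0.73 ± 0.28 (adjusted p = 0.192). Strain and title date cannot be told apart here, and differences followed GC content (rho of -0.442). Equal medians moved the higher share of all calls from 37.2% to 49.1%. The interaction of KLA and strain, with 1 residual degree of freedom, gave 0 calls among all gene models by limma-trend and 835 with an unadjusted p under 0.05. A fit of all 13 libraries called 12 gene models, none of them a ligand. Among the ligands the greatest interaction was that of Cd80, 2.73 ± 0.63 (adjusted p = 0.494 in the TGEM fit and 0.311 in that of 13 libraries).

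The C57Bl/6EiJ vehicle TGEM library was also set against Scramble, which has the same strain but another kind of cell. Cd83 (4.51 ± 0.42, adjusted p = 1.02e-04) and Cd274 (2.19 ± 0.27, 4.19e-04) were higher in the TGEM library, and Cd86 (-1.67 ± 0.31, 0.00346) and Icosl (-1.37 ± 0.32, 0.00873) were lower. The ratio of RPKM was 45.0 for Cd83 and 5.09 for Cd274, and Scramble held 3.73 times as much Cd86 and 6.75 times as much Icosl. Cd40 (-0.58 ± 0.30, 0.150) and Cd80 (-0.91 ± 0.52, 0.192) did not pass. Beside these 2 higher and 2 lower of 6 stood 15.5% and 27.3% of all gene models, and the medians were -0.74 over the 6 and -0.24 over all. Equal medians moved the higher share of calls from 36.2% to 48.9% without changing a ligand's call. Icosl alone was lost in an alternative, with only the Scramble and C57Bl/6EiJ TGEM libraries in the fit (adjusted p = 0.0524). Differences followed GC content (rho of 0.436), and with that trend removed Cd40 passed as well (0.0349). Cell kind, immortalisation, date, sex of origin and the other cells in TGEMs cannot be told apart in this contrast, which rests on 1 TGEM library assumed to vary like the other groups.

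The other genes of the pathway were taken from 4 lists: 18 other ligands, 10 genes of CD40 signalling, 11 transcriptional regulators and 6 genes of protein turnover. In JunDKO against Scramble, where 6.93% of all gene models were higher and 4.82% lower, 2 of 10 tested other ligands were higher and 0 lower. Cd276, encoding B7-H3, rose from 0.653 and 0.920 RPKM to 5.88 and 6.59 (2.02 ± 0.28, adjusted p = 0.00320), and passed in all 14 alternatives. Vsir, encoding the inhibitory ligand VISTA, was up by 0.68 ± 0.18 (adjusted p = 0.0500), a call lost in 8 of 14 alternatives, among them equal medians (0.231) and the omission of any 1 library. Among 10 genes of CD40 signalling 1 was higher and 2 lower. Traf6 (1.02 ± 0.24, 0.0304) and Traf1 (-2.26 ± 0.45, 0.0149), both adaptors of CD40, each lost their call without any 1 of the 4 libraries. Traf6 was also lost on equal medians (0.0996), with quantile normalization (0.0761) and with no filter (0.0537). Tnfaip3, encoding the NF-kB inhibitor A20, was at 21.8 and 18.2 RPKM in Scramble and 5.80 and 5.19 in JunDKO (-1.69 ± 0.19, 0.00111) and passed in all 14 alternatives. Median log2 differences of the 4 lists, in the order given above, were 0.18, -0.08, 0.06 and 0.24, beside 0.24 over all gene models. No transcriptional regulator (9 tested) or gene of protein turnover (6 tested) passed in this comparison by limma-trend, although 3 and 1 had an unadjusted p under 0.05.

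In Atf3KO 4 of 10 other ligands were higher and 1 lower, 2 of 10 genes of CD40 signalling were higher and 2 lower, 1 of 9 regulators was lower, and 2 of 6 genes of protein turnover were higher and 1 lower. Beside these counts stood the 20.7% higher and 20.6% lower of all tested gene models, so the lists as a whole lay near the background. Rel, encoding the NF-kB subunit c-Rel, was at 0 RPKM in both Atf3KO libraries against 6.65 and 4.77 in Scramble, at least 56.9-fold lower when 3 reads are set as the floor over the group (adjusted p = 5.46e-04). Traf1 had 1 read in Atf3KO against 40 in Scramble, a read-rate ratio of 128 (exact 95% interval 21.7 to 5172). This interval and the next cover counting error only, and replicates varied by more than that. Tnfsf14, encoding the costimulatory ligand LIGHT, had 74 reads in Atf3KO against 1 in Scramble, a ratio of 23.2 (4.03 to 927). Its means were 0.139, 0.47 and 0.897 RPKM in Scramble, JunKO and JunDKO, so it met the filter for testing only through Atf3KO. Tnfaip3 was lower (-1.12 ± 0.19, 0.00344), as in JunDKO, and these 4 genes kept their calls in every alternative that tested them. March1, a ubiquitin ligase that acts on Cd86 protein, fell from 3.82 and 5.64 RPKM to 0.693 and 0.983 (-1.63 ± 0.33, 0.00668), a call lost without Scramble 2 (0.0539). Cd276 (0.96 ± 0.28, 0.0277), Relb (1.14 ± 0.32, 0.0215), Stub1 (1.16 ± 0.23, 0.00679) and Cd74 (0.84 ± 0.24, 0.0232) were higher and Cd48 lower (-0.99 ± 0.24, 0.0132), and each of these 5 lost its call with the GC trend removed. The medians of the 4 lists, in the same order, were 0.54, 0.31, 0.31 and 0.18, beside 0.05 over all. In JunKO 0 genes of the 4 lists passed by limma-trend, and 2 had an unadjusted p under 0.05.

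With KLA 3 of 11 other ligands, 2 of 10 genes of CD40 signalling and 2 of 10 regulators were higher, and no gene of the 4 lists was lower, beside 1.29% and 0.232% of all gene models. Of 6 genes of protein turnover 0 passed by limma-trend and 1 had an unadjusted p under 0.05. In the same order the medians were 0.54, 1.07, 0.34 and 0.07, beside -0.15 over all. Tnfsf9, encoding the ligand of the costimulatory receptor 4-1BB, was at 2.72 and 4.88 RPKM in vehicle and at 388 (C57Bl/6EiJ), 554 and 338 (Balb/cJ) with KLA (6.42 ± 0.32, adjusted p = 1.96e-04). Icam1, an adhesion ligand of the synapse, was up by 3.97 ± 0.38 (0.00279) and Pvr, a ligand of CD226 and TIGIT, by 1.98 ± 0.32 (0.0312). Tnfaip3 (4.12 ± 0.29, 7.37e-04), Irf1 (3.74 ± 0.26, 7.75e-04), Rel (2.34 ± 0.29, 0.00885) and Relb (1.79 ± 0.29, 0.0327) rose as well. Tnfsf9 and Tnfaip3 passed in all 14 alternatives, Icam1 and Irf1 were lost only without the Balb/cJ vehicle library (0.161 and 0.0604), and Pvr, Relb and Rel were lost in 7, 7 and 6.

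**Figure D4:**
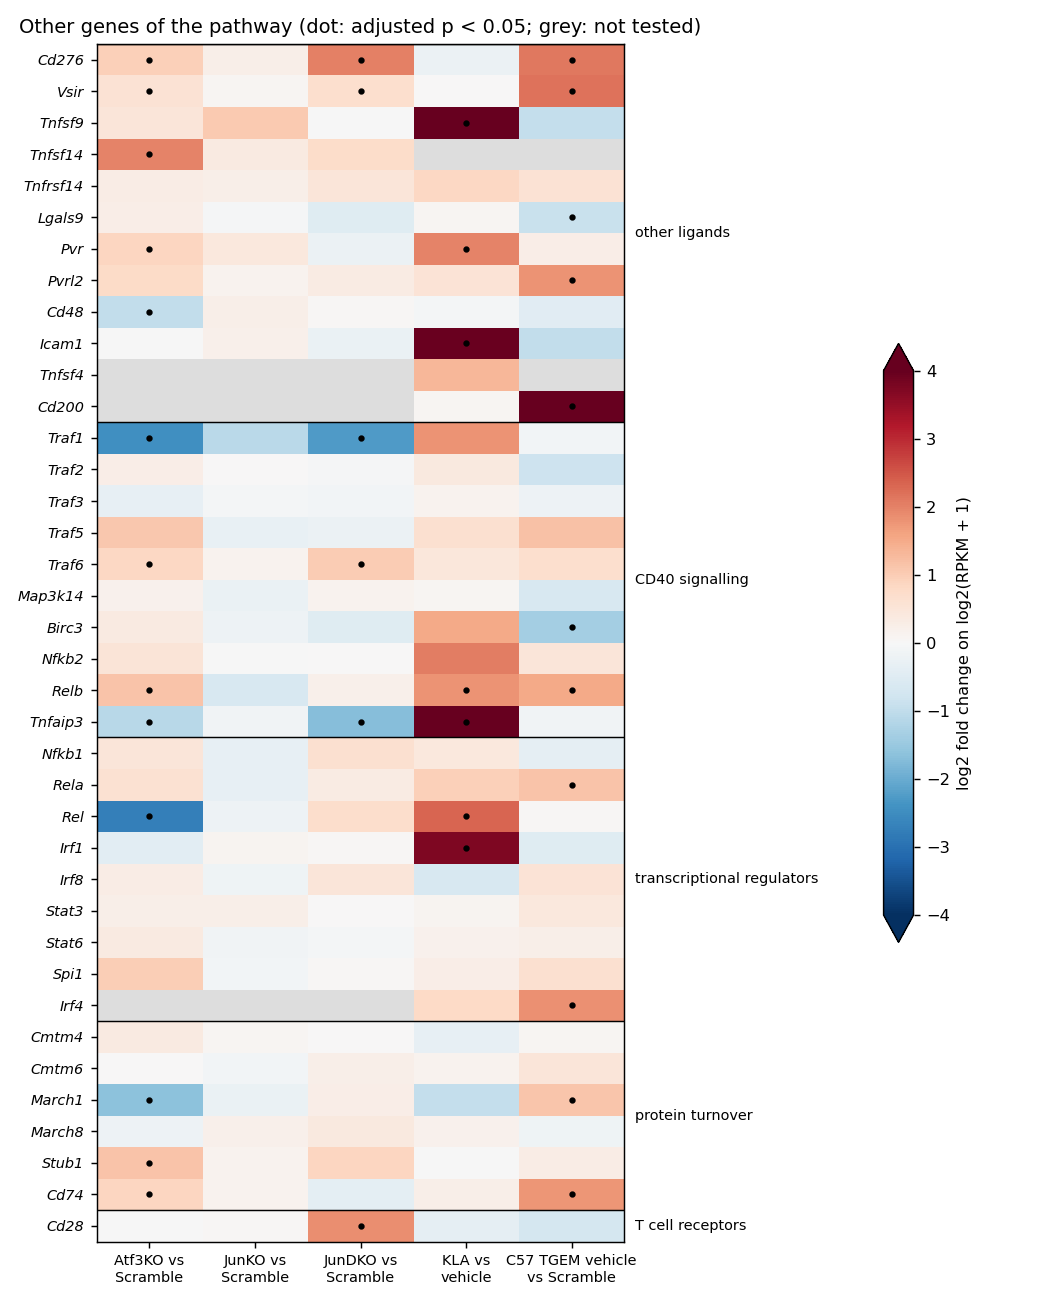
Log2 fold change on log2(RPKM + 1), as colour from -4 to 4, of tested pathway genes (rows, by list) in 5 comparisons (columns). Dots mark an adjusted p under 0.05 by limma-trend and grey marks genes not tested. Tnfsf9, Icam1, Irf1 and Tnfaip3 are the deepest red of the KLA column, the JunKO column has no dot, and Cd28 has a dot in the JunDKO column.

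In the C57Bl/6EiJ vehicle TGEM library against Scramble, 4 of 10 other ligands were higher and 1 lower, 1 and 1 of 10 genes of CD40 signalling, and 2 and 0 of 6 genes of protein turnover, while 2 of 10 regulators were higher. Over all gene models 15.5% were higher and 27.3% lower. The medians were 0.41 for other ligands, -0.13 for CD40 signalling, 0.32 for regulators and 0.39 for protein turnover, beside -0.24 over all. Cd200, encoding an inhibitory ligand of myeloid cells, had 0 reads in all 8 iBMDM libraries and 89.4 RPKM in that library, at least 254-fold higher than Scramble (floor of 3 reads over the group). Vsir (2.18 ± 0.22, adjusted p = 1.38e-04), Cd276 (2.12 ± 0.29, 6.83e-04) and Irf4 (1.83 ± 0.25, 7.62e-04) were higher, and these 3 kept their calls in all 10 alternatives. Irf4 had 1 read in Scramble and 147 in the TGEM library, a read-rate ratio of 46.9 (exact 95% interval 8.29 to 1866, for counting error only). Cd200 and Irf4 met the 1 RPKM filter only through the TGEM libraries.

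Receptors on the T cell side formed a last list of 5 genes, of which 1, Cd28, was tested. It lies outside the rule for naming genes and was chosen after its values were seen. Cd28 measured 9.74 and 13.1 RPKM in Scramble, 11.8 and 11.5 in JunKO, 15.6 and 8.01 in Atf3KO and 43.9 and 44.1 in JunDKO. The JunDKO pair, with 294 and 3506 reads, lay above all other libraries. Its difference from Scramble was 1.87 ± 0.29 (adjusted p = 0.00542), a ratio of mean RPKM of 3.85, and 11 of 14 alternatives kept the call, which was lost without Scramble 1 (0.0526), JunDKO 1 (0.0647) or JunDKO 2 (0.0652). The T cell markers summed to 0.313 and 0.431 RPKM in JunDKO and to at most 1.42 in the other iBMDM libraries. Vehicle TGEMs held 6.63 RPKM of Cd28 (C57Bl/6EiJ) and 0.396 (Balb/cJ), the latter from 4 reads.

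As a description across the 13 libraries, which differ in cell kind and depth, the gene models most like each ligand were sought among 10313 protein-coding models by Pearson's r of log2(RPKM + 1). Cd83 was most like Prdm1 (r = 0.989), Irf4 (0.965) and Osm (0.951). Cd40 was nearest to Nfkbid (0.956), Icam1 (0.937) and Ccl2 (0.933), and Cd80 to Ets1 (0.937), Il15 (0.852) and Scimp (0.840). For Icosl they were Marcksl1 (0.911), E2f8 (0.898) and Trex1 (0.896). Cd86 was nearest to Mrps25 (0.989), Cnot1 (0.987) and Bub1b (0.985), and Cd274 to Adgrg6 (0.986), Mreg (0.982) and Tctn1 (0.981). Pdcd1lg2, with few reads, was nearest to Smad4 (0.763), Mkl2 (0.761) and Mpc1 (0.753). Among the ligands themselves Cd86 and Cd274 ran opposite to each other (r = -0.97), Cd83 and Cd274 had r = 0.77, Cd40 and Icosl had 0.76, and Cd80 had no r beyond -0.35 with any other.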

How the data were processed

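The deposited values are the authors' RPKM, reads per kilobase of exon and per 1e6 reads. Per the file headers and labels, reads were aligned with STAR to mm10 (Balb/cJ reads to that strain's genome, derived from it) and summed over exons by HOMER, with genes condensed. Versions and the strand option are not given in the sources used here. Nothing was realigned. GRO-seq (4 samples) was not analysed here. RPKM steps of 1 read gave depth and whole reads. Of low values, 99.92% to 100% lay within 0.05 of a whole read.

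A gene model entered a test if its mean over the fitted libraries reached 1 RPKM. Tests were made with limma-trend on log2(RPKM + 1), which understates changes of low genes, with two-sided p-values adjusted by Benjamini-Hochberg over all tested models (threshold 0.05). The fits held the 4 iBMDM groups (8 libraries, 4 residual degrees of freedom), treatment and strain in TGEMs (5 libraries, 2), or all 8 groups (13 libraries, 5). The authors tested counts with edgeR, with limits of 2-fold and 16 RPKM, which were an alternative here. Other alternatives were pseudocounts of 0.1 and 5, no filter, equal medians, quantile normalization, limma-voom on recovered reads, a GC correction by a spline, a replicate block, smaller or larger fits, title date in place of strain, and each library left out, where any group left with 1 library borrows the spread of the rest. A crossed block and fits without the Atf3KO libraries were added after the values were seen. Balb/cJ KLA replicates were numbered in accession order. Named genes are the 7 ligands, per pathway list and comparison up to 3 passing genes with the largest change, and the 3 models most correlated with each ligand. A gene of the regulator list is not reported here. Members and lists were chosen with earlier results of these data known. In simulated libraries with 200 models changed 4-fold, 192 (Atf3KO), 197 (JunKO), 196 (JunDKO) and 200 (KLA) were called, with 12, 27, 17 and 38 false calls. The changed models were drawn only from those at higher levels. Every simulated library had the same noise, with no GC trend or date effect. These counts therefore do not show how often changes of low ligands are called in the real libraries. Confidence intervals of counts are exact (95%), and a group at 0 reads is bounded by 3 reads. Software was R 4.3.3, limma 3.58.1, Python 3.11.15, scipy 1.17.1 and matplotlib 3.10.9.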

Additional observations from a re-analysis of the deposited data

Results flagged for a closer look

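Cd80 moved in opposite directions with KLA in the strains. It was at 0.756 RPKM in the Balb/cJ vehicle library and at 6.95 and 3.68 with KLA, and at 4.04 in the C57Bl/6EiJ vehicle library and 1.63 with KLA. The KLA effect in Balb/cJ exceeded that in C57Bl/6EiJ by 2.73 ± 0.63 on the log2(RPKM + 1) scale, with an unadjusted p of 0.00818 and an adjusted p of 0.494 by limma-trend over all gene models (0.311 in a fit of all 13 libraries), so the difference did not pass. The Balb/cJ vehicle value rested on 3 reads and the C57Bl/6EiJ KLA value on 9. Within a title date the ratio of KLA to vehicle was 9.20 in Balb/cJ (exact 95% interval 3.10 to 44.9) and 0.404 in C57Bl/6EiJ (0.178 to 0.808), intervals that cover counting error only.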

How the results depend on the processing

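Of the ligand differences recomputed under the alternatives that kept the threshold, 653 stayed on their side of it, 63 were lost, 16 were gained, and no called difference changed sign. Some uncalled ones did, such as Cd80 with KLA (0.62, lowest -0.94), Cd40 in JunDKO (0.15, lowest -0.12) and Cd83 in JunKO (0.25, lowest -0.28). The study's limits of 2-fold and 16 RPKM left 0 ligands in Atf3KO against Scramble (2 before), 2 in JunDKO against Scramble (4), 2 in JunDKO against JunKO (4), 1 in Atf3KO against JunDKO (3), 0 in Atf3KO against JunKO (3) and 2 in TGEM vehicle against Scramble (4). Limma-voom called 5 in Atf3KO against JunDKO and 1 in Atf3KO against JunKO, and a fit of only the latter groups called 1. The cause was not tested. With a library left out, the counts were 1 to 3 in Atf3KO against Scramble, 1 to 2 in JunDKO against Scramble and against JunKO, 1 to 3 in Atf3KO against JunDKO, 1 to 2 in Atf3KO against JunKO and 0 to 3 with KLA (0 without the Balb/cJ vehicle library). Of the other pathway genes, the study's limits left 2 in Atf3KO (13 before), 1 in JunDKO (5) and 6 in TGEM vehicle (12). JunDKO had 3 after quantile normalization and 10 after GC correction, KLA (7) had 4 with no filter and 4 with title date, and TGEM vehicle had 7 in the smaller fit. Omitting a library gave 5 to 14 in Atf3KO (5 without Scramble 2), 2 in each case in JunDKO and 2 to 6 with KLA (2 without the Balb/cJ vehicle library). Replicate differences correlated between Scramble, JunKO and JunDKO (0.22, 0.18 and 0.19) and ran against those of Atf3KO (-0.21, -0.21 and -0.12), so the numbers were not taken to pair all libraries. With a replicate block 2, 0, 4, 4, 3 and 2 ligands were called in the order Atf3KO, JunKO and JunDKO against Scramble, JunDKO against JunKO, and Atf3KO against JunDKO and JunKO. With crossed numbers for Atf3KO, added after the values were seen, its 3 comparisons (Scramble, JunDKO, JunKO) called 2, 4 and 4. Cd80 in Atf3KO against JunDKO, at 0.0540, passed with the block (0.0189) and the crossed block (0.0421), while with the block Cd86 was lost there (0.0576) and in Atf3KO against JunKO (0.0546). Without the Atf3KO libraries, added likewise, JunKO, JunDKO and JunDKO against JunKO called 0, 4 and 4. Strain and the interaction called 0 ligands in every alternative run. Few reads limit the lowest values: in its poorest library Pdcd1lg2 had 0 reads, Cd80 had 1, Cd83 had 2, and Cd40 and Icosl had 5 each.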
